A study of Homo sapiens with 9 samples.

Results

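The S100 genes encode small proteins that bind calcium through a pair of EF-hand loops and work mostly as dimers; 10 of them were followed here through the knockdown of a histone chaperone in MCF10A cells. MCF10A cells are an immortal, non-tumorigenic line from human breast epithelium. The members are S100A2, S100A4, S100A6, S100A8, S100A9, S100A10, S100A11, S100A13, S100A14 and S100A16, taken by symbol from the 26186 genes of the count table, and all 10 passed the filter on low counts that left 16235 genes for testing. The table holds 7 further S100 genes, of which 5 were tested and are described below. The choice of members was not based on a rule of level or change, but it was made with earlier results of these data known.

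The knockdown groups carried a lentiviral pLKO.1 hairpin against CHAF1B, called shCHAF1B-#1 or shCHAF1B-#2, and the control group carried shGFP, a hairpin against green fluorescent protein in the same vector. CHAF1B is a subunit of CAF-1, the chaperone complex that deposits histones on DNA behind the replication fork. Each group had 3 libraries of polyadenylated RNA, collected on day 3 after infection, with puromycin at 2 µg/mL from 24 hours on. All groups were grown with insulin, cholera toxin, EGF, hydrocortisone and horse serum. The labels do not say that libraries came from separate cultures, so the p-values measure the spread between these libraries, which may be technical.

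Totals ranged from 24339914 to 31819468 counts per library. CHAF1B stood at 2.56 to 3.88 CPM (counts scaled to a common library size by TMM, a normalisation for library composition) with shCHAF1B-#1 and 2.66 to 3.89 CPM with shCHAF1B-#2, against 35.2 to 41.0 CPM with shGFP. All 13 epithelial markers checked were detected in every library, at a summed level of 13454 to 14826 CPM with shCHAF1B-#1, 13262 to 13888 CPM with shCHAF1B-#2 and 13793 to 14926 CPM with shGFP. Within that sum the markers moved apart, with 7 higher and 4 lower in the mean of both hairpins. The laminin subunit LAMB3 (1.42), the integrin ITGB4 (0.95) and the keratin KRT8 (0.78) were among the higher, and the basal keratins KRT17 (-1.16), KRT5 (-0.84) and KRT14 (-0.52) among the lower, all as log2 fold changes. The library shCHAF1B-#1 replicate 3 stood apart: its B lymphocyte markers summed to 5575 counts, against 37 to 73 counts in each of the other 8 libraries. Results below are given with it, and no call of a member against shGFP ended when it was left out.

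When calcium binds, an S100 dimer opens a surface that grips a partner protein, so these proteins relay calcium signals without being enzymes themselves. In basal mammary and skin epithelium several are among the most abundant messages, and S100A8 with S100A9 forms calprotectin, known from neutrophils and from stressed keratinocytes. The members all lie in 1 cluster on chromosome 1, between 151982915 and 153632039 (GRCh38), which also holds the genes of the cornified envelope. Where RNA is measured in bulk, a change in the share of cells that express a gene and a change per cell cannot be told apart.

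The starts of 5 members are shown, 4 with the letters TATAAA and S100A14 without them. S100A4, S100A13 and S100A9 rose most, S100A14 least, and S100A8 is the partner of S100A9 with a smaller rise. Each line gives the 150 bases before a transcript start, 5′ to 3′ on the gene's own strand, from RefSeq on GRCh38.p14, with capitals for the letters TATAAA.
S100A4, chr1:153545807-153545956, minus strand: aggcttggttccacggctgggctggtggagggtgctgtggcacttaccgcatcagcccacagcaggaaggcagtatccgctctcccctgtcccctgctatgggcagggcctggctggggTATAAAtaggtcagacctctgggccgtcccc
S100A13, chr1:153627506-153627655, minus strand: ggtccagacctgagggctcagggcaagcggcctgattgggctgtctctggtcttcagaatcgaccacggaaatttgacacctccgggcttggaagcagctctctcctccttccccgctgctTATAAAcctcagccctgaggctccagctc
S100A9, chr1:153357704-153357853, plus strand: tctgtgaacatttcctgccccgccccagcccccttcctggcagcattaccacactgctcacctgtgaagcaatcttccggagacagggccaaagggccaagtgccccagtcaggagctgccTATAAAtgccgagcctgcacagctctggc
S100A8, chr1:153391074-153391223, minus strand: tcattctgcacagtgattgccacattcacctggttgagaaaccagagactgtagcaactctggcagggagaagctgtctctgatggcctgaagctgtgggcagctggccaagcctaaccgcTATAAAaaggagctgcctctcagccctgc
S100A14, chr1:153616326-153616475, minus strand: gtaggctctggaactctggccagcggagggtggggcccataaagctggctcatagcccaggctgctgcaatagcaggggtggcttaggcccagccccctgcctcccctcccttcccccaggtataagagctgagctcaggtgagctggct

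TATAAA was searched on both strands in the 250 bases before each of 16 annotated starts of the 10 members. It was found in 5 of these 16 windows, 2 of which are overlapping windows of S100A8, and in 10.7% of 35116 such windows of all genes. The 5 windows belong to 4 members, S100A4, S100A8, S100A9 and S100A13. In the windows printed above it begins 31 bases before the start in S100A4 and 29 bases before it in the other 3. Among members without TATAAA, S100A6, S100A10, S100A16 and S100A11 rose more than S100A8 in the mean of both hairpins. Their log2 fold changes were 0.97, 0.86, 0.85 and 0.85, against 0.57 for S100A8. S100A2 and S100A14, also without TATAAA, rose by 0.49 and 0.25. Of the other tested S100 genes, S100A5, S100A3 and S100A1 had no TATAAA in their windows, while S100A7 and S100P had it. In the mean of both hairpins S100A5 rose by 2.20, S100A3 by 1.72 and S100A7 by 1.12. S100P fell by 0.86, and S100A1 did not pass. A link between the motif and the size of the rise was not tested. Only the exact letters were searched, and the windows of S100A14 and S100A6 hold the similar letters tataag. S100A13 has 3 annotated starts and the motif at 1 of them. S100A8 has 3 with the motif in 2 overlapping windows, of which the one where it lies closest to the start is printed. Each of 4 other motifs was found at 1 member only. They were TGANTCA (known from AP-1) at S100A2, TTNNGCAA (C/EBP) at S100A11, GGAATG (TEAD) at S100A16 and the NF-kB motif at S100A14, and they occur in 6.57%, 9.05%, 11.9% and 9.96% of all windows. Of the 5 motifs searched, TATAAA was chosen for display after the search, as were the 5 starts. No member's window held more than 1 of the 5 motifs, and a match is a description of letters, not of binding.

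All 10 members rose with shCHAF1B-#1 and all 10 rose with shCHAF1B-#2, each by edgeR's quasi-likelihood test at a Benjamini-Hochberg adjusted p under 0.05 over all genes tested. Of the 16235 genes, 27.9% passed as higher with shCHAF1B-#1 and 26.7% with shCHAF1B-#2, and 23.8% in both. Lower calls made up 25.2% and 24.6% of genes tested, so that 53.2% and 51.3% passed in either direction, and 20.8% were lower under both. The log2 fold changes of the members ran from 0.23 to 1.49 with shCHAF1B-#1 and from 0.26 to 1.59 with shCHAF1B-#2. Their medians were 0.88 and 0.84, beside medians of -0.00 and -0.01 over all genes tested. In each member, all 6 knockdown libraries lay above all 3 shGFP libraries, as did 25.8% of genes tested, while 22.7% of genes lay below. Both comparisons used the same shGFP libraries, so they are not independent of each other.

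S100A4, also known as metastasin, binds the heavy chain of nonmuscle myosin IIA and is known for cell motility. It had 135, 143 and 126 CPM with shCHAF1B-#1 and 144, 132 and 158 CPM with shCHAF1B-#2, against 45.4, 50.1 and 48.3 CPM with shGFP. The lowest knockdown library thus lay far above the highest shGFP library. Its log2 fold change was 1.49 (SE 0.0696, adjusted p = 1.1e-09) with shCHAF1B-#1 and 1.59 (SE 0.0698, adjusted p = 6.4e-10) with shCHAF1B-#2, the largest of the 10 in the mean of both hairpins. That mean change exceeded that of 97.0% of genes tested.

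S100A13 is known for helping proteins without a signal peptide, such as FGF1 and interleukin-1 alpha, to leave the cell. Its level was 179, 168 and 164 CPM with shCHAF1B-#1 and 167, 163 and 185 CPM with shCHAF1B-#2, against 62.8, 68.3 and 69.6 CPM with shGFP. The lowest knockdown library lay well above the highest control library. The log2 fold change was 1.34 (SE 0.0608, adjusted p = 7.8e-10) and 1.36 (SE 0.0609, adjusted p = 8.1e-10) for shCHAF1B-#1 and shCHAF1B-#2. Its exons share 235 bases with S100A1 on the other strand and 536 bases with the noncoding AL162258.1, and the library kit does not mark strand. S100A1, known from heart muscle, held 266 and 221 counts over the libraries of shCHAF1B-#1 and shCHAF1B-#2, against 315 with shGFP, and did not pass in either comparison. S100A13 itself held 13776 and 12568 counts, against 5520 with shGFP.

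S100A9 and S100A8 form the heterodimer calprotectin, which binds zinc and manganese and is released as an alarm signal. S100A9 had 98.1, 91.0 and 87.9 CPM with shCHAF1B-#1 and 99.9, 92.9 and 108 CPM with shCHAF1B-#2, against 39.8, 41.3 and 40.8 CPM with shGFP. The shGFP libraries were close together and the knockdown libraries all lay above them (2.27-fold, adjusted p = 3.1e-09, and 2.47-fold, adjusted p = 1.3e-09; SE 0.0617 and 0.0618 on the log2 scale). S100A8 was the least abundant member, at 18.1, 14.6 and 15.6 CPM with shCHAF1B-#1 and 18.4, 14.4 and 20.6 CPM with shCHAF1B-#2, against 10.4, 12.4 and 11.4 CPM with shGFP. Its groups did not overlap but came close, and its log2 fold changes were 0.50 (SE 0.125, adjusted p = 0.0042) and 0.64 (SE 0.125, adjusted p = 0.00070). The level of S100A9 per length was 9.15 to 11.2 times that of S100A8 in the knockdown libraries, against 5.79 to 6.70 times in the shGFP libraries.

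Both genes are also markers of myeloid cells, so the myeloid list was read beside them. Of 16 myeloid markers 7 were in the table. They summed to 45.5, 46.1 and 76.3 CPM in replicates 1, 2 and 3 of shCHAF1B-#1, the last being the library with the B lymphocyte counts. With shCHAF1B-#2 they summed to 41.4 to 43.4 CPM, against 29.5 to 33.4 CPM with shGFP. Of the 3 that were tested, 2 rose in the mean of both hairpins: CD14, a lipopolysaccharide co-receptor, by 0.86 (SE 0.0748) and ITGAM, an integrin of myeloid cells, by 0.55 (SE 0.200, adjusted p = 0.031). ITGAM did not pass with shCHAF1B-#2 alone (adjusted p = 0.070), and CSF1R did not pass in the mean (0.09, SE 0.0617). PTPRC, the leukocyte common antigen, held 794 counts in shCHAF1B-#1 replicate 3 and 2 to 7 counts in each other library. In that replicate 8 of the 10 members, S100A9 among them, had the lowest level of their group, while S100A8 was lowest in replicate 2. CD68 and the transcription factor SPI1 were at 0 to 6 counts in each library, save 79 counts of SPI1 in shCHAF1B-#1 replicate 3. S100A12, the third S100 gene of neutrophils, had at most 3 counts in any library. The part of myeloid RNA in the S100A8 and S100A9 results was not tested. Of the 6 endothelial markers 5 were in the table, and they summed to 11.3 to 11.9 CPM with shCHAF1B-#1 and 10.6 to 12.6 CPM with shCHAF1B-#2, against 3.94 to 4.56 CPM with shGFP. Of 3 tested, 2 rose in the mean of both hairpins, PECAM1 by 1.92 (SE 0.135) and TEK by 0.70 (SE 0.277, adjusted p = 0.044). KDR did not pass (0.26, SE 0.181), and with shCHAF1B-#2 alone only 1 of the 3 passed as higher. TEK held 13, 30 and 25 counts with shCHAF1B-#2, against 22, 17 and 14 with shGFP. VWF held at most 5 counts and CLDN5 at most 3 in any library. PECAM1, an adhesion protein of endothelium and leukocytes, held 209 to 247 counts in each knockdown library, against 53 to 85 in each shGFP library. Fibroblast markers summed to 14.4 to 17.3 CPM in the knockdown libraries, against 17.5 to 17.7 CPM with shGFP. Its tested genes moved in opposite directions: COL1A1, a collagen chain, rose by 0.84 (SE 0.0831) and DCN, the matrix protein decorin, fell by 2.38 (SE 0.101) on the log2 scale in the mean of both hairpins. The part of these genes in the S100 results was not tested.

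S100A6 and S100A2 were the most abundant members. S100A6, or calcyclin, binds annexins and the ubiquitin ligase adaptor CACYBP. It had 5579, 5211 and 4741 CPM with shCHAF1B-#1 and 5121, 4897 and 6027 CPM with shCHAF1B-#2, against 2509, 2859 and 2715 CPM with shGFP. The groups were far apart, at log2 fold changes of 0.94 (SE 0.0816, adjusted p = 4.7e-07) and 0.99 (SE 0.0816, adjusted p = 3.1e-07).

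S100A2 is a nuclear S100 protein of basal epithelial cells and a known target of p63. Its level was 7416, 7601 and 6856 CPM with shCHAF1B-#1 and 7200, 7092 and 9034 CPM with shCHAF1B-#2, against 4977, 5570 and 5531 CPM with shGFP. All knockdown libraries lay above the controls, with replicate 3 of shCHAF1B-#2 highest. The rise was smaller than that of S100A6, at 0.44 (SE 0.0844, adjusted p = 0.00056) and 0.54 (SE 0.0845, adjusted p = 0.00013) on the log2 scale. Per length of merged exons, the level of S100A6 was 1.08 to 1.21 times that of S100A2 in the knockdown libraries, against 0.792 to 0.828 times in shGFP. The order of the pair thus differed between the groups on this scale. With the longest transcript as the length, S100A6 exceeded S100A2 in 5 of 6 knockdown libraries, at 0.989 to 1.12 times, and stood at 0.728 to 0.761 times in shGFP.

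S100A10, or p11, does not need calcium to act and sits with annexin A2 in a tetramer at the plasma membrane that binds plasminogen. It had 1519, 1351 and 1381 CPM with shCHAF1B-#1 and 1333, 1276 and 1472 CPM with shCHAF1B-#2, against 759, 764 and 775 CPM with shGFP. No knockdown library came near the control range (0.89, SE 0.0601, adjusted p = 4.1e-08, and 0.83, SE 0.0601, adjusted p = 8.8e-08). ANXA2, its partner, rose by 0.73 (SE 0.0498) in the mean of both hairpins. Per length, ANXA2 was at 0.301 to 0.332 times the level of S100A10 in the knockdown libraries, against 0.342 to 0.359 times in shGFP.

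S100A11 is a partner of annexin A1 and is known from keratinocyte growth control. It ranged from 1334 to 1419 CPM with shCHAF1B-#1 and from 1267 to 1446 CPM with shCHAF1B-#2, against 719 to 773 CPM with shGFP (0.86, SE 0.0570, and 0.83, SE 0.0570). Processed pseudogenes of S100A11 are in the table with 51 and 211 counts in all, against 269796 for S100A11. S100A16, a widely expressed member, ranged from 1789 to 1997 CPM and from 1762 to 1992 CPM with the hairpins, against 992 to 1107 CPM with shGFP (0.87, SE 0.0635, and 0.84, SE 0.0635). S100A10, S100A11 and S100A16 thus changed by nearly equal amounts, with 95% intervals that overlap in each comparison.

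S100A14, an epithelial member whose gene neighbours S100A16, rose least. It stood at 1582, 1477 and 1391 CPM with shCHAF1B-#1 and 1416, 1443 and 1700 CPM with shCHAF1B-#2, against 1207, 1327 and 1260 CPM with shGFP. The groups did not overlap, but the gap between them was narrow. The log2 fold change was 0.23 (SE 0.0714, adjusted p = 0.015) with shCHAF1B-#1 and 0.26 (SE 0.0714, adjusted p = 0.0069) with shCHAF1B-#2. The shCHAF1B-#1 call ended without shCHAF1B-#1 replicate 1 (0.18, adjusted p = 0.063) and without shGFP replicate 1 (0.20, adjusted p = 0.071). Per length, S100A16 was at 0.880 to 0.965 times the level of S100A14 in the knockdown libraries, against 0.591 to 0.626 times in shGFP.

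**Figure D1:**
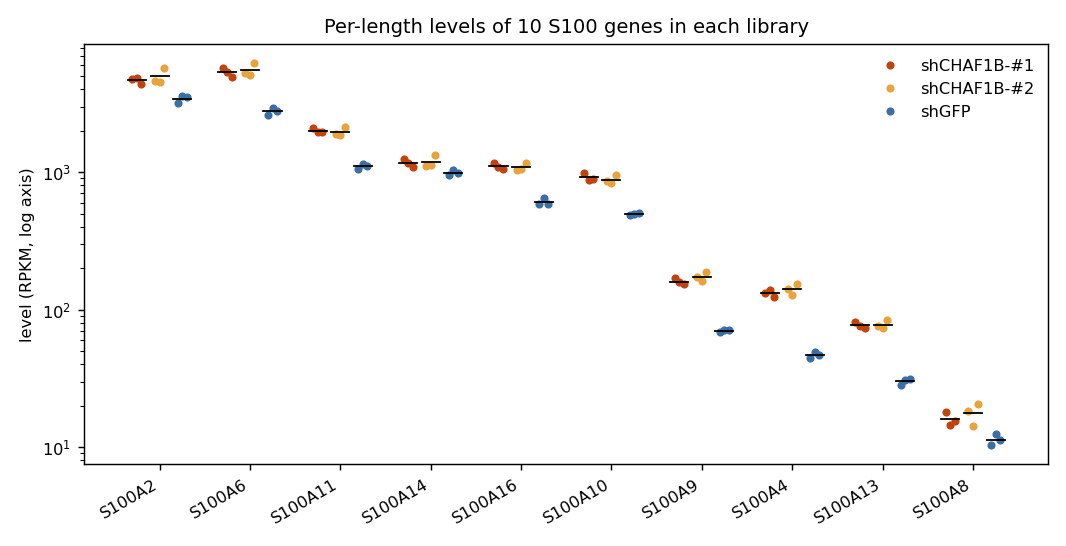
Level of each of the 10 S100 genes in RPKM (CPM per kilobase of merged exons, TMM-scaled) on a log axis, by library (points, n = 3 per group) with the group mean (line); genes are ordered by their shGFP level. In each gene the 6 knockdown points lie above the 3 shGFP points.

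Levels of different genes were compared per length, in RPKM. In shGFP the members ran in the order S100A2 (3420 ± 212), S100A6 (2775 ± 181), S100A11 (1100 ± 40.2), S100A14 (991 ± 47.0), S100A16 (607 ± 37.9), S100A10 (496 ± 5.48), S100A9 (70.4 ± 1.33), S100A4 (46.8 ± 2.31), S100A13 (30.2 ± 1.61) and S100A8 (11.3 ± 1.03; SD, n = 3). No neighbours in this order overlapped in their mean ± SD ranges. By these levels S100A2 ranked 8 and S100A6 ranked 11 among 16221 tested genes with a length, S100A11 20 and S100A14 22. S100A8 ranked 4066. The pair of S100A6 and S100A2 overlapped in these ranges under both hairpins, at 5332 ± 433 and 4653 ± 247 with shCHAF1B-#1, where the ranges only just met, and at 5508 ± 616 and 4962 ± 696 with shCHAF1B-#2. So did the pair of S100A14 and S100A16, at 1162 ± 74.7 and 1107 ± 62.0 with shCHAF1B-#1 and at 1190 ± 123 and 1088 ± 72.9 with shCHAF1B-#2.

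Together the 10 genes held 1.86% ± 0.0873 of all counts with shCHAF1B-#1 and 1.93% ± 0.206 with shCHAF1B-#2, against 1.25% ± 0.0547 with shGFP (SD, n = 3 each). The libraries lay between 1.76% and 1.93% with shCHAF1B-#1 and between 1.79% and 2.16% with shCHAF1B-#2, above the 1.19% to 1.29% of shGFP. Of the gain in summed CPM, S100A6 made up 35.5% and 34.97% and S100A2 27.6% and 31.8% for shCHAF1B-#1 and shCHAF1B-#2. S100A4, which rose most in fold, made up 1.24% and 1.27%. Within groups, members often shared the library where they stood highest or lowest. All 10 were highest in replicate 3 among the shCHAF1B-#2 libraries, and 9 of 10 were lowest in replicate 1 among the shGFP libraries. Among the shCHAF1B-#1 libraries, 8 of 10 were highest in replicate 1 and 8 of 10 lowest in replicate 3. The share of all genes with these extremes was not counted, so the counts do not show a pattern particular to the members.

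The 4 ratios given above were each compared between the 6 knockdown and 3 shGFP libraries with a two-sided exact permutation test on the log2 scale. The ratio of S100A9 to S100A8 was higher by 0.68, that of S100A16 to S100A14 by 0.61 and that of S100A6 to S100A2 by 0.48, each in 6 of 6 knockdown libraries relative to all controls. The log2 ratio of ANXA2 to S100A10 was lower, with a difference of -0.12, in 6 of 6, and its call ended without shGFP replicate 2 (-0.11, exact p = 0.071) or shGFP replicate 3 (-0.11, exact p = 0.071). With all 9 libraries each exact p was 0.012, which is also the smallest that the 84 arrangements allow and the value after adjustment over the 4 ratios. The ratios were put to these tests after their values had been seen.

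**Figure D2:**
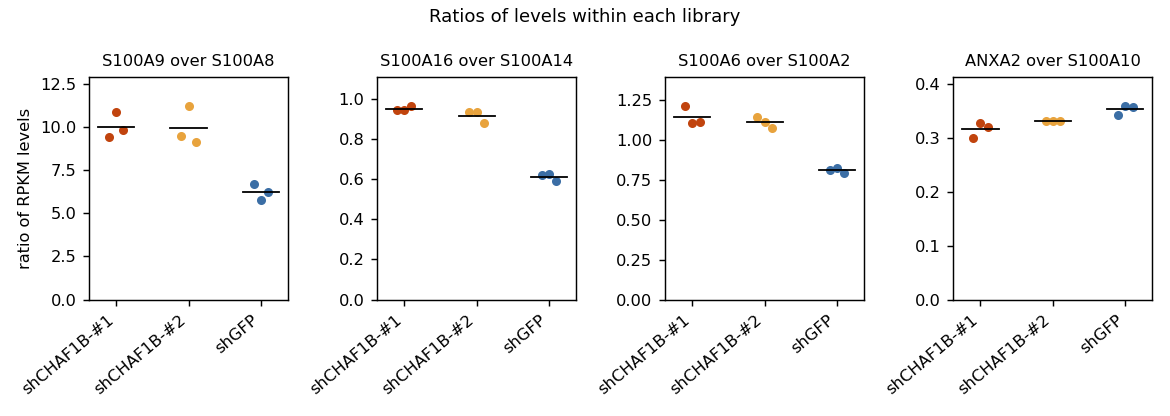
Ratio of the RPKM levels of gene pairs in each library (points), with the group mean (line, n = 3), on linear axes from 0. S100A9 over S100A8, S100A16 over S100A14 and S100A6 over S100A2 are higher in the knockdown libraries, and ANXA2 over S100A10 is slightly lower.

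Between the hairpins, 0 of the 10 members and 0 of 16235 genes passed with edgeR, and DESeq2 and limma-voom gave 0 as well. At an unadjusted p under 0.05, edgeR had 1800 genes, DESeq2 1238 and limma-voom 1705, with 0 members in each. In 0 members did all shCHAF1B-#2 libraries lie above, or all below, the shCHAF1B-#1 libraries, while this held for 9.33% and 7.96% of genes tested. The differences of the members, shCHAF1B-#2 minus shCHAF1B-#1, lay between -0.06 for S100A10 (95% interval -0.19 to 0.07) and 0.14 for S100A8 (95% interval -0.12 to 0.41). That of S100A4 was 0.10 (95% interval -0.04 to 0.25) and that of S100A9 was 0.12 (95% interval -0.01 to 0.25). These intervals bound the difference and do not show that the hairpins act alike.

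Of the other S100 genes, S100A3 and S100A5 rose and S100P fell under both hairpins. The S100A3 gene lies within the annotated span of S100A4 with no shared exon bases, and is known from the hair cuticle. It had 51.6, 52.7 and 54.6 CPM with shCHAF1B-#1 and 47.7, 51.9 and 42.8 CPM with shCHAF1B-#2, against 15.9, 13.9 and 15.9 CPM with shGFP. Its log2 fold changes, 1.80 (SE 0.0766) and 1.64 (SE 0.0772), were larger than those of any of the 10 members. S100A5, known from olfactory neurons, held 245 counts over the 6 knockdown libraries and 28 over the shGFP libraries, a ratio of levels of 4.67 (95% counting interval 3.15 to 7.17).

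S100P, whose gene lies on chromosome 4 and whose protein binds ezrin, was the only one of the 5 other S100 genes tested that passed as lower. It had 5.85, 5.74 and 4.85 CPM with shCHAF1B-#1 and 6.36, 6.63 and 7.36 CPM with shCHAF1B-#2, against 11.4, 11.1 and 10.8 CPM with shGFP. All knockdown libraries were below all controls (log2 fold change -1.02, SE 0.0966, and -0.71, SE 0.0954). S100A7, or psoriasin, held 72 counts over the knockdown libraries and 17 with shGFP. It passed as higher with shCHAF1B-#1 (adjusted p = 0.018) and not with shCHAF1B-#2 (adjusted p = 0.19), and the hairpins did not differ for it by test (adjusted p = 0.58). S100A7 and S100A7A are near-identical copies, so their values are uncertain. S100A12 and S100A7A were at or under 3 counts in every library and were not tested.

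Along chromosome 1 the changes formed no single level. In the mean of both hairpins the neighbours S100A5, S100A4 and S100A3 rose by 2.20, 1.54 and 1.72, while S100A6 and S100A2 on either side of them rose by 0.97 and 0.49. S100A13 rose by 1.35 beside S100A14, which rose by 0.25. Of 21 other protein-coding genes in the table that lie between S100A10 and S100A1, 10 were tested, 3 passed as higher and 5 as lower. These 10 are the same genes as the tested cornified envelope and fused-type S100 genes described below. Of all genes tested, 56.9% passed in this comparison, 29.2% as higher and 27.7% as lower.

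**Figure D3:**
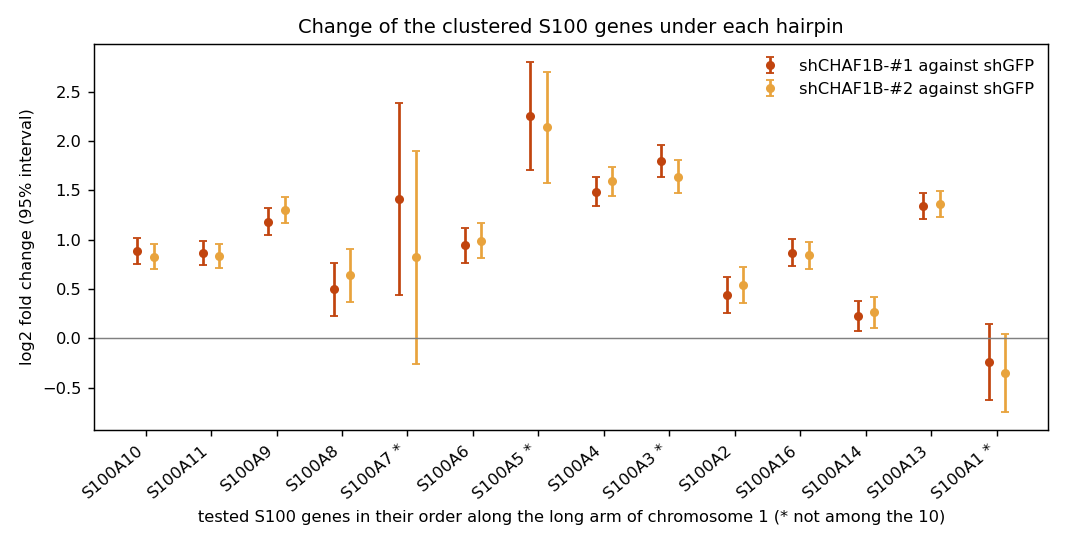
Log2 fold change against shGFP with its 95% interval for the tested S100 genes of chromosome 1, in their order along the chromosome (not to scale), for shCHAF1B-#1 and shCHAF1B-#2. S100A5, S100A4 and S100A3 are neighbours and lie highest, S100A14 lies close to 0, and the intervals of S100A1 include 0.

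The cornified envelope genes of the same region are expressed as keratinocytes harden. Of 33 listed, 7 were tested, with 3 higher and 4 lower in the mean of both hairpins (median -0.60). The genes with the smallest adjusted p were KPRP, LCE1E (-0.91, SE 0.156), SPRR1B (-0.78, SE 0.154) and LCE1B (-0.60, SE 0.149). KPRP held 160 counts over the knockdown libraries and 3 over the shGFP libraries, a ratio of 28.4 (95% counting interval 9.56 to 139). Of the fused-type S100 genes, which carry S100 domains on long repeat proteins, 3 were tested. HRNR, or hornerin, passed as lower (-1.32, SE 0.360), while TCHH and FLG did not pass. HRNR rested on few counts, 19 over the libraries of shCHAF1B-#1 and 11 over those of shCHAF1B-#2, against 39 with shGFP.

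Annexins bind membranes in the presence of calcium, and several do so as complexes with S100 dimers. Of 12 tested, 8 rose and 0 fell in the mean of both hairpins, with a median of 0.22. ANXA5 rose by 0.85 (SE 0.0455), ANXA2 by 0.73 (SE 0.0498), ANXA6 by 0.73 (SE 0.0812) and ANXA1, a partner of S100A11, by 0.41 (SE 0.0491). Of 16 tested intracellular partners, which include 3 of the 12 annexins, 10 rose and 3 fell (median 0.19). PPFIBP1, or liprin-beta 1, a partner of S100A4, rose by 0.92 (SE 0.0460), IQGAP1, a scaffold of the cell cortex, by 0.53 (SE 0.0413), and AHNAK, a large membrane scaffold bound by S100A10, by 0.95 (SE 0.110). MYH9, the myosin bound by S100A4, rose by 0.21 (SE 0.0664). Those that fell included MYH10, another nonmuscle myosin (-0.40, SE 0.0466), and CACYBP, the partner of S100A6 (-0.38, SE 0.0455). TP63 did not pass (-0.09, SE 0.0387). AHNAK, MYH9, MYH10, CACYBP and TP63 were named beside those with the smallest adjusted p after their values were seen.

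Of 4 tested receptors of released S100 proteins, 2 passed as higher and 0 as lower in the mean of both hairpins (median 0.08), against 1 of 4 with shCHAF1B-#1 alone, BSG, and 0 of 4 with shCHAF1B-#2 alone. BSG, or basigin, a receptor for S100A9, had 714 ± 54.1 CPM with shCHAF1B-#1 and 685 ± 29.05 CPM with shCHAF1B-#2, against 628 ± 47.5 CPM with shGFP, and passed as higher in the mean (0.15, SE 0.0569, adjusted p = 0.032) but not with shCHAF1B-#2 (adjusted p = 0.13). TLR4, which recognises calprotectin, had 1.96 ± 0.113 CPM with shCHAF1B-#1 and 1.95 ± 0.132 CPM with shCHAF1B-#2, against 1.51 ± 0.225 CPM with shGFP, and passed narrowly in the mean (0.37, SE 0.148, adjusted p = 0.049) but with neither hairpin alone (adjusted p = 0.084 and 0.090). AGER, the receptor for advanced glycation end products, did not pass (0.01, SE 0.178), nor did ALCAM (-0.01, SE 0.0400). Of the proteins that leave the cell by the route of S100A13, FGF1 rose by 1.09 (SE 0.187), while IL1A fell by 0.37 on the log2 scale (SE 0.0532) and SYT1, or synaptotagmin-1, fell by 0.62 (SE 0.166).

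Among 18 tested cytokines and transcription factors known to act on S100 genes, 11 rose and 3 fell (median 0.33). IL1B, the cytokine interleukin-1 beta, had 98.5 ± 2.47 CPM with shCHAF1B-#1 and 87.4 ± 3.66 CPM with shCHAF1B-#2, against 26.2 ± 1.51 CPM with shGFP (SD, n = 3 each; 1.82, SE 0.0506). The AP-1 subunits FOSL1 and FOS rose by 1.19 (SE 0.0595) and 0.84 (SE 0.0517). The epithelial ETS factor EHF fell by 2.01 (SE 0.0829). The other genes that fell were IL1A and CEBPB, a C/EBP factor (-0.36).

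Other EF-hand genes did not move one way: of 36 tested, 14 rose and 11 fell, with a median of -0.00. SPARC, a secreted calcium-binding matrix protein, rose by 1.94 (SE 0.0510) and CAPN2, a calpain protease, by 1.13 (SE 0.0420). MYL9, a myosin light chain, fell by 1.12 (SE 0.0769). Of 12 tested genes of epithelial defence other than S100, 4 rose and 4 fell (median 0.05). RNASE7, an antimicrobial ribonuclease of skin, rose by 1.95 (SE 0.0592), CXCL8 by 0.93 (SE 0.0555) and CCL20 by 0.88 (SE 0.0594), and CXCL1 fell by 0.95 (SE 0.0692). These lists are described by their counts beside the 29.2% and 27.7% of all genes given above, and were not compared with the S100 genes by a test.

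**Figure D4:**
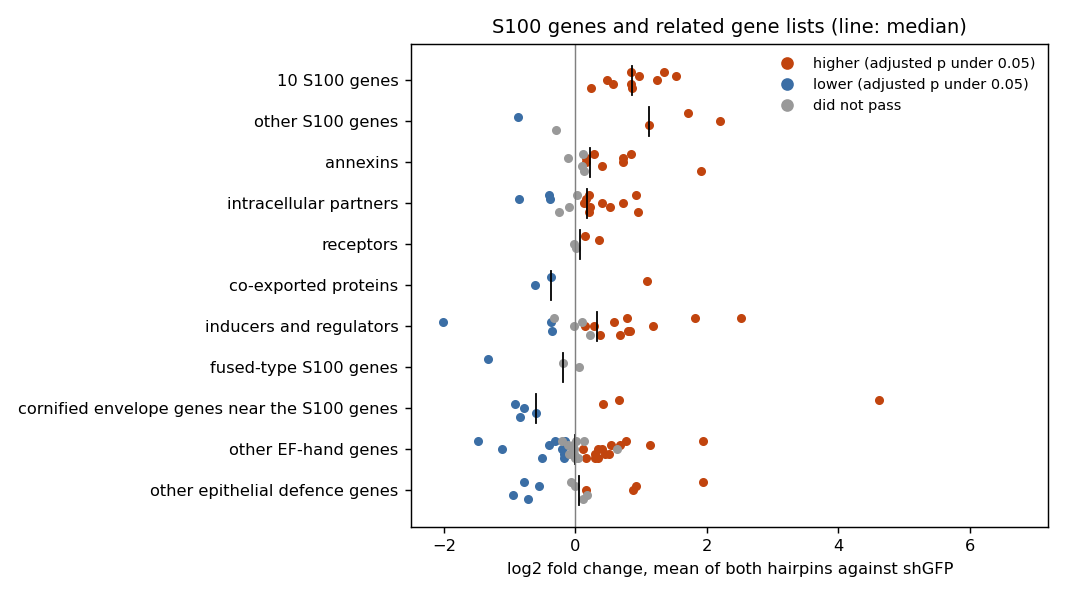
Log2 fold change in the mean of both hairpins against shGFP for each tested gene (point) of the S100 genes and related lists, with the median (line); red passed as higher, blue as lower and grey did not pass. All 10 S100 genes lie to the right of 0, while the other S100, EF-hand and defence genes lie on both sides. Of the 12 annexins, 8 passed as higher and 0 as lower.

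S100A4 had the largest mean change of the 10, and the tested protein-coding genes with the most similar profile to it were sought by Euclidean distance between centred log2(CPM + 1) values over 9 libraries. They were INSIG1 (distance 0.174), FHL2 (0.197), CTNNBIP1 (0.250), TSPAN5 (0.253) and PCDHAC1 (0.254). INSIG1 is a sterol-regulated protein of the endoplasmic reticulum, and FHL2 a LIM-domain cofactor. Their log2 fold changes lay between 1.44 and 1.70 with shCHAF1B-#1 and between 1.45 and 1.72 with shCHAF1B-#2, beside 1.49 and 1.59 for S100A4. The genes were chosen by their profile over these same libraries, so fold changes near that of S100A4 follow from the choice.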

How the data were processed

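RNA of 9 libraries was analysed from 1 table of gene counts. The deposited values are unnormalized whole-number counts, made from polyadenylated RNA prepared with the TruSeq kit, per the labels' protocols, which does not mark strand. Per the submitters' processing notes, the tools were HTSeq 0.8.0, STAR 2.5.3a and DESeq2 1.18.1; the builds, mm10 and hg38, are listed without saying what each was used for. Of 26186 gene identifiers, 26149 matched GENCODE release 29 (GRCh38) with the version dropped.

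Libraries were grouped by hairpin. filterByExpr (minimum count 10, minimum total 15, proportion 0.7) left 16235 genes, scaled by TMM and fitted with edgeR 4.0.16 in R 4.3.3 (quasi-likelihood test, all 9 libraries, group as the only term, Benjamini-Hochberg adjustment over all genes, threshold 0.05). SEs were derived from the log2 fold change and its F statistic. Alternatives used limma 3.58.1 and DESeq2 1.42.0. Libraries of the same group were distinguishable beyond counting error in each pair (chi-square per degree of freedom 4.12 to 14.3). Replicate numbers did not pair the libraries. The steps were tested on simulated data. Intervals from counts cover counting error only.

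All 10 members are named, with the other S100 genes and, from each related list, up to 4 genes with the smallest adjusted p. Some genes that this rule would name are not reported here. Members and lists were chosen with earlier results of these data known. The permutation tests of 4 ratios, the motif and starts displayed and the fold between the highest and lowest member were chosen after their values were seen. Promoter windows came from RefSeq. Amino acid sequences were not used here. Figures were drawn with matplotlib 3.10.9.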

Additional observations from a re-analysis of the deposited data

How the results depend on the processing

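Against shGFP, each of the 10 S100 genes kept its direction under both hairpins with RLE or upper-quartile scaling, no filter on low counts, at least 1 CPM in 3 libraries, DESeq2, limma-voom, only the groups compared, and each library left out. The count of members higher was 10 under each of these, save 9 with shCHAF1B-#1 when shCHAF1B-#1 replicate 1 or shGFP replicate 1 was left out, where S100A14 lost its call. The count lower stayed at 0, and between the hairpins it stayed at 0 in either direction. The replicate number as a block (replicate block) likewise gave 10 members higher under each hairpin. The numbers do not pair the libraries: same-numbered libraries correlated at -0.18 to 0.18 in their deviations from group means, above 0.1 in 1 of 9 pairs. Libraries of different groups and different numbers correlated at -0.38 to 0.37, a wider range. The source of these correlations was not tested.

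With each library left out in turn, the difference between the hairpins changed sign for 6 members. It ranged from -0.029 to 0.15 for S100A2, from -0.047 to 0.11 for S100A6, from -0.092 to 0.0055 for S100A11, from -0.043 to 0.052 for S100A13, from -0.053 to 0.084 for S100A14 and from -0.081 to 0.020 for S100A16, and 0 of these passed. The group shares of counts without 1 library ran from 1.82% to 1.91% with shCHAF1B-#1, 1.81% to 2.00% with shCHAF1B-#2 and 1.23% to 1.28% with shGFP. The fold between the highest and lowest member per length in shGFP was 303 by merged exons and 339 by the longest transcript, in the same order of genes. For the ratios, 2 kinds of alternative were chosen after seeing the data. With each library left out in turn, all 4 differences kept their direction, and the exact p reached at most 0.036 for 3 of them, the smallest possible with 2 shGFP libraries. That of ANXA2 over S100A10 ranged from -0.15 to -0.10, with p up to 0.071. With the longest transcript as the length, the 3 differences between S100 genes are the same by construction. S100A8, with 269 to 490 counts per library, has the widest intervals of the members.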
